A study of Mus musculus with 8 samples.

Results

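In bone marrow-derived macrophages (BMDMs) at rest, 2478 sites of open chromatin lay between genes and outside annotated repeats and CpG islands. They were drawn from an ATAC-seq peak table made from macrophages with an NCoR f/f genotype. The table listed 24867 peaks (assembly mm10), of which 15473 belonged to the vehicle (Veh) peak set of this genotype. Of these Veh peaks 3389 were annotated as intergenic, and 911 of the intergenic peaks carried a repeat or CpG island name and were set aside. The remaining 2478 of the 15473 Veh peaks are called intergenic peaks here. They were chosen by peak set and annotation alone and not by their tag numbers in any library, although a peak had to be strong enough to be called at rest.

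The study asked how the corepressor NCoR and the histone deacetylase HDAC3 take part in macrophage responses to toll-like receptor 4 (TLR4). NCoR f/f macrophages carried floxed NCoR1 alleles, the control genotype for a myeloid deletion driven by LysM-Cre, and were given vehicle for 6 h in 2 libraries. Wild type (WT) macrophages were given vehicle, the TLR4 agonist Kdo2 lipid A (KLA), or KLA with RGFP966, an HDAC3 inhibitor, in 2 libraries each. Vehicle and KLA lasted 6 h. Per the study's methods, cells were kept in low serum for 12 h before the ligand, and RGFP966 was added when that period began. RGFP966 is named in the sample titles, while the treatment label of those libraries reads KLA. Marrow came from C57BL/6 mice aged 8 to 12 weeks and was cultured with L929 conditioned medium, so each library is a culture of many cells and not a sorted population. The sources used here do not say whether 2 replicates came from different mice, so p-values measure only the spread between these samples.

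ATAC-seq uses a transposase that inserts adapters where DNA is not wrapped in nucleosomes, and a tag is the mapped end of a read. Open sites far from gene starts include enhancers, stretches where transcription factors bind side by side and act on genes at a distance. In macrophages PU.1 opens and marks much of this landscape together with C/EBP, AP-1 and RUNX factors, and signals such as TLR4 ligands bring in NF-kB and more AP-1. NCoR-HDAC3 complexes are tethered to such sites by nuclear receptors and other factors.

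Sequences of 7 intergenic peaks are printed first, because later results turn on the peaks or the motifs in them. Each run is the central 200 bp of a peak, read from the mm10 reference on the + strand and written 5' to 3', and capitals mark matches to the motifs searched. Peaks assigned to Zfp36 and Ccl3 lay near TLR4 response genes, those of Prrc2c and Itpripl2 gained tags with KLA, and those of Pwwp2b and 1810026B05Rik lost tags with KLA. The Spi1 peak lay upstream of the start given in the peak table for the gene of PU.1. Another Spi1 peak, which held no motif match, is not printed. Those of Pwwp2b, 1810026B05Rik and Spi1 were chosen after their values were seen. Peaks without a match were passed over, so every printed window holds a match. Of the intergenic peaks on chromosomes, 37.3% held none of the motifs searched.
Zfp36-assigned peak, chr7:28381094-28381293: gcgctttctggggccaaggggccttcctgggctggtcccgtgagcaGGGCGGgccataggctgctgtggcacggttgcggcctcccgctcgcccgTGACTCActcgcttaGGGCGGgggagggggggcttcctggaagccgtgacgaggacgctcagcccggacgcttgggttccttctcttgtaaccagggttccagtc
Ccl3-assigned peak, chr11:83640244-83640443: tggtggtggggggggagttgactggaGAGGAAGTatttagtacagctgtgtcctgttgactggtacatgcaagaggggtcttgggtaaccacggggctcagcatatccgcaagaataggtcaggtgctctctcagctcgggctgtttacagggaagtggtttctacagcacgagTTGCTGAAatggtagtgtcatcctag
Prrc2c-assigned peak, chr1:162773742-162773941: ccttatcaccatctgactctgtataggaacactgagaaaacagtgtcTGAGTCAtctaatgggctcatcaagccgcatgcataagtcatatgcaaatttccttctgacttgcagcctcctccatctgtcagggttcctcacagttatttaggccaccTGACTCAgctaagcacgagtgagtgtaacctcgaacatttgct
Itpripl2-assigned peak, chr7:118479150-118479349: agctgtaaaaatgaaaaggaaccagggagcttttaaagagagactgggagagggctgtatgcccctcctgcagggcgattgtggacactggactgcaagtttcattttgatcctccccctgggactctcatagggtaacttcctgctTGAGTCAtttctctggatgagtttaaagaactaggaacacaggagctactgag
Pwwp2b-assigned peak, chr7:139273431-139273630: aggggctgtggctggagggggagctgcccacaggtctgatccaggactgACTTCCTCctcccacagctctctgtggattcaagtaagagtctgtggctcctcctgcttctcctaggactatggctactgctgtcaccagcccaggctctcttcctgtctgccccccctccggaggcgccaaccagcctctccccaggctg
1810026B05Rik-assigned peak, chr7:73595264-73595463: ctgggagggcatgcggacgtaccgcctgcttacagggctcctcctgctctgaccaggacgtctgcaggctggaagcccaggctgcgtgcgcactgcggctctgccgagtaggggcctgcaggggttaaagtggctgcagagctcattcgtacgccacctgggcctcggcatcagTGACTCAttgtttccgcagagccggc
Spi1-assigned peak, chr2:91086389-91086588: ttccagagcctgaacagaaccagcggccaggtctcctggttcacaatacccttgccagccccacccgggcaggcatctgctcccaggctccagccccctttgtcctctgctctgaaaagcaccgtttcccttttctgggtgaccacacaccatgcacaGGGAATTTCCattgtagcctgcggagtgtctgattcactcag

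In these windows the capitals are an AP-1 match (TGACTCA) flanked by GC boxes for Zfp36, PU.1 and C/EBP matches for Ccl3, and 2 AP-1 matches for Prrc2c. Itpripl2 and 1810026B05Rik hold 1 AP-1 match each, Pwwp2b holds a PU.1 match on the opposite strand, and Spi1 holds an NF-kB match. The motifs searched on both strands were PU.1 (GAGGAAGT), C/EBP (TTGCNNAA), AP-1 (TGACTCA or TGAGTCA), IRF (GAAANNGAAA), RUNX (TGTGGTT), MITF/TFE (TCACGTG), CTCF (CCANNAGGNGGC), the GC box (GGGCGG) and the NF-kB consensus. Matches of different motifs may overlap and each was counted on its own. A match is a stretch of letters, not evidence that a factor was bound.

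In NCoR f/f macrophages 15702362 and 18689862 tags were obtained, of which 372367 (2.37%) and 509741 (2.73%) lay in listed peaks. Intergenic peaks took 41173 and 54183 tags, 11.1% and 10.6% of those in peaks. WT libraries held 6247529 to 11005917 tags, with 116733 to 202523 in the 9698 peaks of their own table. As a check of the cell label, a Veh peak lay within 2 kb of the start of 6 of 14 macrophage markers (Cd14, Cd68, Mertk, Tlr4, Cx3cr1 and Trem2), 0 of 12 T and B cell markers, 2 of 10 neutrophil markers (Camp and Mmp8), 1 of 11 erythroid and megakaryocyte markers (Klf1) and 1 of 12 stromal and endothelial markers (Kdr). Csf1r, Adgre1 and Itgam had no listed Veh peak within that distance. The WT and NCoR f/f libraries carry different library dates and were counted on different peak lists, so no test was made between them.

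Most intergenic peaks were modest. The median peak held 14 tags in replicate 1 (range 5 to 202) and 19 in replicate 2 (range 5 to 231), and was 299 bp wide. Scaled to 10000000 tags in peaks, the median mean level was 377, near the 365 of 3073 intronic peaks outside repeats and below the 504 of 7098 promoter peaks. At such numbers counting error is large: 921 intergenic peaks (37.2%) reached 16 tags in both libraries, against 62.3% of promoter peaks. The 2 libraries correlated with Pearson r = 0.73 and Spearman rho = 0.64 across peaks on log2 scaled tags, a description over peaks of the same libraries. Scaled levels differed by more than 2-fold in 74 peaks (2.99%), and 10 peaks averaged more than 100 tags.

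**Figure D1:**
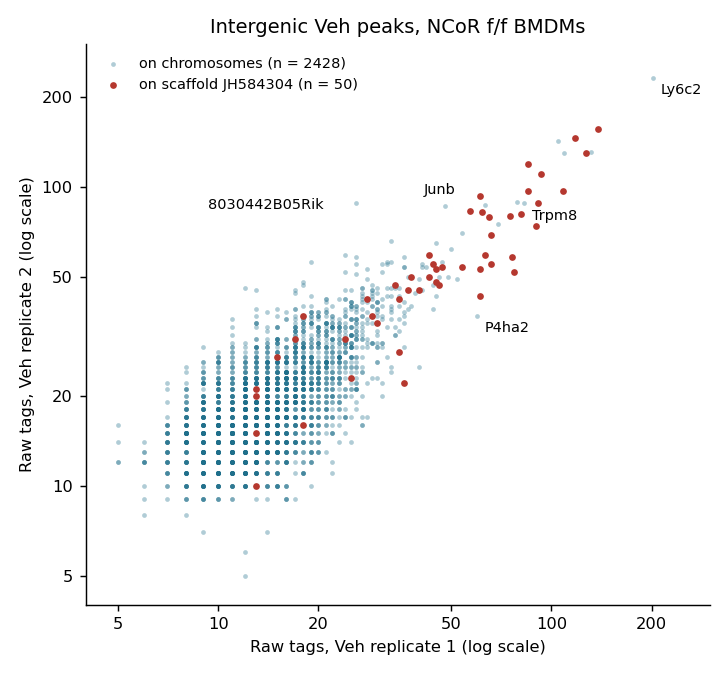
Raw tags of each of the 2478 intergenic peaks in NCoR f/f Veh replicate 1 (x axis) and replicate 2 (y axis), both on log scales, with 50 peaks of scaffold JH584304 in red. Most points lie between 10 and 30 tags, and the scaffold peaks fill much of the upper end.

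The highest levels stood mostly on an unplaced scaffold. Of the 10 peaks with the highest mean level, 6 lay on the unplaced scaffold JH584304, nearest to the pseudogene Pisd-ps3. The highest of all was 25.1 kb from Ly6c2 (chr15:75086666-75087038), a gene for a monocyte surface protein, with 202 and 231 tags. Its sequence had 7 copies in the genome at 85% identity or more, and whether reads of the copies were placed there was not tested. A peak 25.7 kb from Col19a1 (chr1:24613017-24613218), with 109 and 130 tags, was 99.5% identical to mitochondrial DNA. The other 2 lay 2.34 kb (131 and 131 tags) and 3.11 kb (105 and 142 tags) upstream of Sfi1, chr11:3195603-3195998 and chr11:3196430-3196716. None of the 4 on chromosomes held a match to any motif searched.

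The scaffold held 50 intergenic peaks, 2.02% of the peaks and 6.52% and 5.44% of their tags. They ranged from 13 to 138 tags in replicate 1 and from 10 to 156 in replicate 2, and 35 of them stood among the 100 highest. Of the 50, 36 overlapped a peak of the WT Veh set. The scaffold sequence was not matched to the reference used here, and statements on distance and motifs therefore cover the 2428 peaks on chromosomes. Without the scaffold r fell to 0.68. At 95% identity, 20 peaks on chromosomes had a further copy in the genome, and 2 matched mitochondrial DNA.

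Among single-copy peaks chosen after their values were seen, the site 1.25 kb upstream of Junb (chr8:84979672-84980319), which encodes an AP-1 subunit, held 48 and 86 tags. A peak 31.2 kb from 8030442B05Rik with an AP-1 match held 26 and 88 tags and differed between replicates by more than most. Peaks nearest to Tmem230 (50 and 62 tags), Mdm1 (47 and 56), Nt5e (52 and 49) and P4ha2 (60 and 37) were among those that followed. Nt5e encodes the ecto-nucleotidase CD73 and P4ha2 a collagen prolyl hydroxylase subunit.

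Intergenic peaks were spread over all autosomes. Their density per 10 Mb was highest on chromosome 11 (12.6) and low on chromosome X (2.28). The median distance to the nearest annotated gene start was 24.2 kb, against 16.6 kb for intronic peaks. Of the 2428 peaks, 96 lay within 2 kb of a start, 549 at 2 to 10 kb, 1070 at 10 to 50 kb, 341 at 50 to 100 kb, 357 at 100 to 500 kb and 15 beyond 500 kb. Levels hardly moved with distance, with median scaled means of 389 within 2 kb and 362 at 100 to 500 kb. The 5 farthest peaks were assigned to Pla2g4a (1019 kb, 17 and 20 tags), Trps1 (780 kb, 11 and 19), Gm20268 (747 kb, 11 and 28), B3galt2 (746 kb, 17 and 27) and Nap1l3 (743 kb, 10 and 21). At such distances the assigned gene is only the nearest start.

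Intergenic here depends on the gene models. Against GENCODE, 565 peaks (23.3%, 95% Wilson interval 21.6 to 25.0) overlapped an annotated gene, 238 of them a protein-coding gene and 219 a lincRNA. Both Sfi1 peaks named above were among the 565 and overlapped Drg1. A GENCODE start lay within 1 kb of 214 peaks, and the median distance to the nearest one was 10.9 kb.

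**Figure D2:**
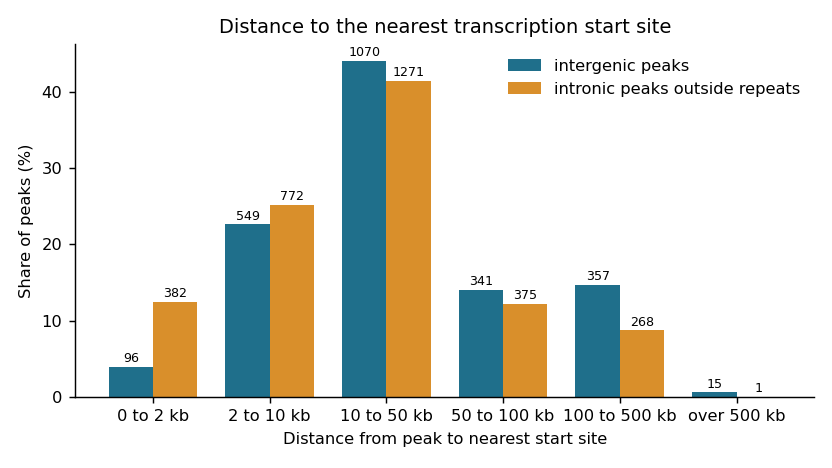
Share of intergenic and intronic peaks (y axis, percent) by distance to the nearest annotated gene start (x axis, distance classes in kb), with the number of peaks above each bar. The class of 10 to 50 kb held 44.1% of intergenic and 41.4% of intronic peaks, while 3.95% and 12.4% lay within 2 kb.

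The 2428 peaks on chromosomes were assigned to 1770 genes. Of these, 1338 had 1 peak, 294 had 2, 94 had 3 and 44 had 4 or more. Marcks, which encodes a protein kinase C substrate, had the most of these (10 peaks at 2.33 to 226 kb, with 10 to 36 and 13 to 58 tags). Hjurp, Irf2bp2, Maf and Trpm8 had 9 each. Irf2bp2 encodes a transcriptional cofactor of IRF2 and Maf a bZIP factor of mature macrophages. The 9 Maf peaks ran from 1.01 to 284 kb of its start, and 4 of them held an AP-1 match.

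With gaps of at most 10 kb, 25.7% of the peaks stood in 224 pairs and 41 longer chains, and 1840 stood alone. The largest chains were those of the scaffold (45 peaks), of the Hjurp and Trpm8 locus (18 peaks over 25.8 kb, chr1:88279181-88304952) and, with 5 peaks each, a further stretch of the scaffold, Junb with Hook2 (chr8:84979672-84986326) and the Mir23a and Mir181c locus (chr8:84191988-84204330). The Hjurp and Trpm8 chain lay in a block of 106 kb, chr1:88209181-88314952, that was chosen after its values were seen. The block held 124 peaks of the NCoR f/f table, while the densest window of the same length elsewhere on the chromosomes held 47. It took 0.998% and 0.841% of the peak tags of the NCoR f/f libraries. In the WT table it held 48 peaks, against 28 at most elsewhere, and took 0.410% to 0.529% of peak tags. The strongest peak of the chain, 5.69 kb from Trpm8 and 1525 bp wide, held 83 and 88 tags in NCoR f/f. Of the 18 peaks, 8 overlapped a WT peak and 1 of them a WT Veh peak. In GENCODE all 18 overlapped the Trpm8 gene, so the chain is intergenic only by the gene models of the peak table. Genotype, library date and peak list all differ between the tables and cannot be told apart.

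AP-1 was the most frequent of the factor motifs in intergenic peaks and sat at their centres. In the central 200 bp, 24.8% of intergenic peaks (95% Wilson interval 23.1 to 26.5) held an AP-1 match, against 706 of 3069 intronic peaks (21.5% to 24.5%), 2.48% of promoter peaks (2.14 to 2.87) and 11.7% of all Veh peaks. C/EBP matches stood in 14.5% of intergenic, 12.8% of intronic, 4.54% of promoter and 8.72% of all Veh peaks. PU.1 matches stood in 12.9% (11.6 to 14.3), 15.5% (14.3 to 16.8), 2.56% and 7.90%, in the same order. RUNX matches stood in 10.4%, 10.4%, 1.80% and 5.59%. For AP-1 the intervals of intergenic and intronic peaks overlapped, and those of promoter peaks lay apart from both.

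Matches were fewer for NF-kB and IRF, but the motifs differ in length and in the letters they fix. The rate expected for each motif was not taken, so shares of different motifs are not on the same scale. NF-kB matches stood in 4.24% of intergenic, 3.42% of intronic, 3.33% of promoter and 3.51% of all Veh peaks, and IRF matches in 2.72%, 2.48%, 1.41% and 1.91%. CTCF, the factor at loop anchors, had matches in 0.988% (0.665 to 1.47), 0.424% (0.248 to 0.723), 1.16% and 0.949%. MITF/TFE, the motif of lysosomal gene regulators, had matches in 2.18% of intergenic and 5.28% of promoter peaks. The GC box of CpG-rich promoters stood in 11.5% of intergenic, 10.2% of intronic, 69.5% of promoter and 42.4% of all Veh peaks. Base composition moved with these shares: median GC was 51.0% in intergenic, 52.0% in intronic and 66.5% in promoter windows, and its part in the difference was not tested.

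**Figure D3:**
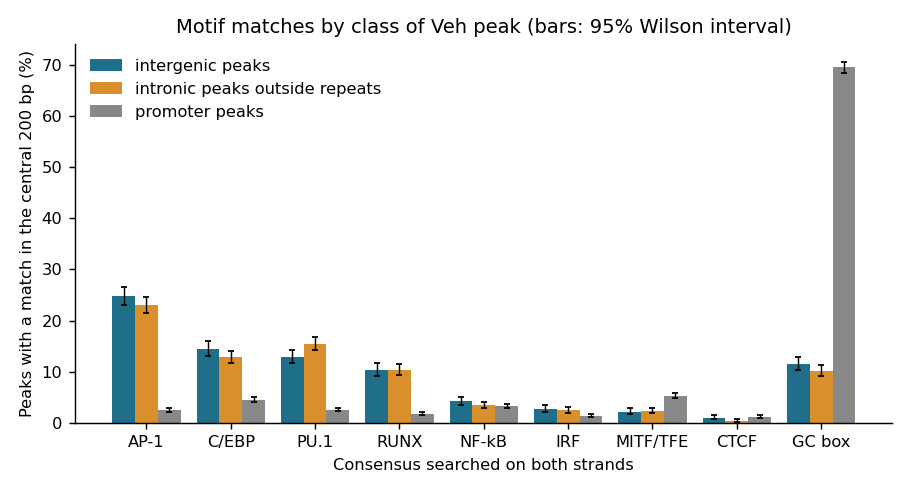
Share of peaks with a motif match in the central 200 bp (y axis, percent) for intergenic, intronic and promoter peaks of the Veh set, with error bars for 95% Wilson intervals. AP-1, C/EBP, PU.1 and RUNX stand high in both distal classes, and the GC box reaches 69.5% in promoters.

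Motif position within the peaks set PU.1 and AP-1 apart from the other motifs measured. PU.1 matches were 12.2 times as dense within 50 bp of the centre as at 400 to 500 bp from it, and AP-1 matches 8.79 times. The same ratio was 2.94 for NF-kB, 2.03 for RUNX, 1.98 for C/EBP and 0.925 for IRF. In intronic peaks the ratios were 17.7 for PU.1 and 8.61 for AP-1. Of PU.1, C/EBP, AP-1 and RUNX, 1192 intergenic peaks held none, 973 held 1, 244 held 2 and 19 held 3. None of the 9 motifs stood in 906 peaks (37.3%).

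**Figure D4:**
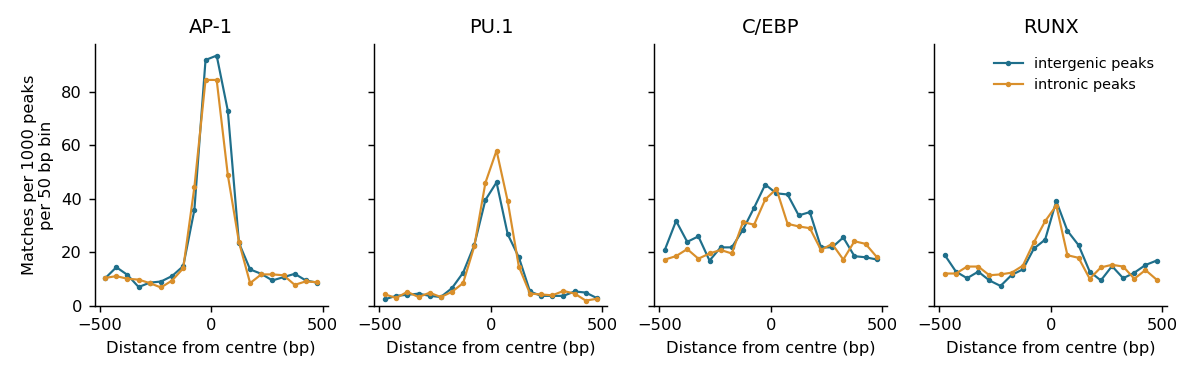
Matches per 1000 peaks in 50 bp bins (y axis) by distance from the peak centre in bp (x axis) for AP-1, PU.1, C/EBP and RUNX, in intergenic and intronic peaks. AP-1 and PU.1 rise steeply at the centre in both classes, while C/EBP and RUNX rise less (centre to flank ratios of 1.98 and 2.03 in intergenic and 2.16 and 2.898 in intronic peaks).

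Intergenic peaks were also counted by gene list. Each peak was assigned to the nearest start, whatever its distance. Of the 9722 genes with any Veh peak assigned, 1771 had an intergenic one, but the lists also hold genes without a Veh peak. The share over all annotated genes was not taken, so these counts do not measure enrichment. Of 34 macrophage transcription factors, 20 had at least 1 intergenic peak (44 peaks in all), with 8 to 48 and 10 to 86 tags. The strongest for each of the leading genes were those of Junb (above), of Nr4a1 (chr15:101262541-101262817, 30 and 37 tags), an orphan nuclear receptor, of Hif1a, the hypoxia factor (121.9 kb away, 30 and 29 tags), and of Maf (56.6 kb away, 24 and 37 tags). Of the 44 peaks, 27 were also in the KLA set of the same genotype, beside 65.3% of all intergenic peaks, and 10 held a PU.1 match, beside 12.9%. Spi1, which encodes PU.1, had peaks 11.99 kb (10 and 21 tags) and 10.2 kb (9 and 22 tags) upstream of the start given in the peak table. In GENCODE both peaks overlapped the Spi1 gene. Both held fewer tags in replicate 1, and neither overlapped a WT Veh peak.

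Of 51 TLR4 response genes, 14 had 19 intergenic peaks, with 7 to 26 and 10 to 36 tags. The strongest were assigned to Ccl2, a monocyte chemokine (28.4 kb, 26 and 36 tags), Zfp36, which encodes the mRNA decay factor TTP (1.97 kb, 25 and 36), Ccl3, a chemokine of the MIP family (9.03 kb, 21 and 29), and Nfkbiz, which encodes a nuclear IkB protein (158 kb, 17 and 33). The 19 peaks were listed in NCoR f/f macrophages without any TLR4 ligand, but only the nearest start ties them to these genes. Of the 19, 14 were also in the KLA set, beside 65.3% of all intergenic peaks. In WT macrophages 4 of the 19 overlapped a Veh peak, beside 24.3% of all intergenic peaks. The Ccl3 and Nfkbiz peaks named here overlapped no WT peak. Of 27 genes of liver X receptor (LXR) and lipid metabolism, 8 had 10 intergenic peaks. Those of Scd1, a fatty acid desaturase (19.1 kb, 27 and 16 tags), Insig1, which retains SREBP in the endoplasmic reticulum (34.2 kb, 19 and 21), and Nr1h3, which encodes LXR alpha (1.76 kb, 16 and 17), were among the strongest.

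Of 12 genes of the NCoR complex and its signalling partners, 2 had intergenic peaks, among them Tbl1xr1, a subunit (124 kb, 17 and 15 tags), although 11 of the 12 had a Veh peak within 2 kb of their start. Of 14 macrophage markers, 2 had an intergenic peak, Lyz2 (lysozyme, 16 and 17 tags) and Adgre1 (F4/80, 11 and 14). T and B cell and neutrophil markers had none. Cxcl12 (26 and 21 tags) and Kdr (13 and 15), of the stromal and endothelial list, had 1 each, and the osteoclast genes Nfatc1 (14 and 15), Ctsk (11 and 15) and Dcstamp (12 and 12) had 1 each. The part of other cell types in these tags was not tested.

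Listing in other peak sets followed the level of the peak. Of the 2478 intergenic peaks, 65.3% (95% Wilson interval 63.4 to 67.1) were also listed in the KLA set of NCoR f/f macrophages, 34.7% in the Veh set and 56.4% in the KLA set of NCoR-deficient macrophages, 25.5% in all 4 sets and 23.1% in the Veh set alone. These sets differed in size (18667, 7983 and 14357 peaks beside 15473), and the libraries behind the other sets were not analysed here, so the shares do not measure a change of tags. With the 2428 peaks on chromosomes split by level into 3 classes of like size, 38.1% of the lowest, 67.1% of the middle and 89.6% of the highest class were in the KLA set. Promoter peaks were listed more often, with 84.3%, 55.1% and 72.9% in the 3 other sets, and intronic peaks as often, with 65.7%, 33.7% and 56.3%.

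Peaks with an AP-1 match were listed in the NCoR f/f KLA set in 73.4% of cases (69.7 to 76.8), against 62.2% (59.9 to 64.4) without one. Their median tags were 15 and 19 against 14 and 18, and their median scaled mean was 388 against 368. AP-1 matches stood in 20.1% of the lowest, 26.9% of the middle and 27.2% of the highest class by level. With an NF-kB match the share was 78.6% (69.8 to 85.5), against 64.3% without, and with a PU.1 match 62.6% (57.1 to 67.8), against 65.3%. The median scaled mean was 406 with an NF-kB match and 372 without. The part of level in these differences was not tested. In NCoR-deficient KLA the AP-1 shares were 65.4% and 52.6%.

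In WT macrophages 1145 of the intergenic peaks (46.2%, 44.3 to 48.2) overlapped a listed peak by at least 1 bp, and 24.3% (22.6 to 26.0) overlapped one of the WT Veh set. The WT Veh, KLA and RGFP966 with KLA sets held 4743, 5092 and 7869 peaks, and 22.8% and 36.8% of intergenic peaks overlapped the latter 2. By level, again on chromosomes, 3.83% of the lowest, 13.7% of the middle and 52.2% of the highest class had a WT Veh peak. AP-1 went with a WT KLA peak in 28.5% of peaks, against 19.2% without, and with a WT Veh peak in 24.8%, against 22.8%.

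KLA changed few of these sites past the threshold. The 1145 intergenic peaks were represented by 1145 WT peaks, here called counterparts, whose median was 9 to 17 tags per library. With edgeR's quasi-likelihood test over all 9698 WT peaks (Benjamini-Hochberg adjusted p under 0.05 and fold over 2), 22 counterparts gained and 37 lost tags with KLA. These 59 made up 5.15% of counterparts, beside 5.03% of the whole table. Gains were 1.92% of counterparts beside 3.3% of the table, and losses 3.23% beside 1.73%. The intergenic peaks were chosen in resting cells, so sites open only after KLA could not be among them. Intronic counterparts were called in 16 gains and 48 losses of 1306, and promoter counterparts in 15 and 38 of 3961. The median log2 fold change was -0.04 over counterparts and 0.02 over the table. DESeq2 called none at the same threshold and found 71 counterparts at an unadjusted p under 0.05, where edgeR found 255. Of the losses 18 were in 243 counterparts that stayed below 16 tags in every library, while no gain was. The Veh and KLA libraries did not overlap in 586 counterparts (51.2%, 257 higher and 329 lower with KLA), beside 47.9% of the table. Gains and losses numbered 4 and 14 without WT Veh replicate 1, 9 and 17 without Veh replicate 2, 6 and 11 without KLA replicate 1, and 13 and 20 without KLA replicate 2.

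The clearest gain was 33.3 kb from Prrc2c (printed above, with 2 AP-1 matches), whose counterpart held 6 and 4 tags in Veh and 32 and 22 in KLA. Its log2 fold change was 2.13 ± 0.42 (SE, edgeR adjusted p = 0.000985). The peak 12.7 kb from Itpripl2, with 1 AP-1 match, went from 4 and 6 to 33 and 20 tags (2.10 ± 0.42, edgeR adjusted p = 0.00133). The peak 9.58 kb from Nucb2, with C/EBP and AP-1 matches, went from 8 and 10 to 54 and 19 (1.72 ± 0.36, edgeR adjusted p = 0.00225), and its KLA libraries differed from each other by more than in the others. In none of these did the Veh and KLA libraries overlap, which held for every called counterpart and for 47.9% of all WT peaks. The call for Prrc2c held without each library in turn, that for Itpripl2 was lost without Veh replicate 1 (log2 fold change 1.80) and that for Nucb2 without Veh replicate 1 (1.53) or KLA replicate 1 (1.17).

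Further gains were 52.4 kb from Igf1, which encodes a growth factor that macrophages secrete, with an NF-kB match (2 and 5 to 24 and 14 tags, 2.13 ± 0.51, edgeR adjusted p = 0.00676), and 38.8 kb from Gab1, an adaptor of receptor tyrosine kinases, with an AP-1 match (5 and 2 to 19 and 19, 2.13 ± 0.51, edgeR adjusted p = 0.00770). All 22 gained counterparts belonged to peaks of the NCoR f/f KLA set, where 86.3% of all peaks with a counterpart did. The call for Igf1 was lost without Veh replicate 1 (log2 fold change 1.58) or KLA replicate 1 (2.07), and that for Gab1 without Veh replicate 2 (1.67) or KLA replicate 2 (1.83).

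The clearest loss was 11.2 kb from 1700027F06Rik, with a RUNX match, from 17 and 17 tags in Veh to 3 and 3 in KLA (-2.73 ± 0.49, edgeR adjusted p = 0.000327). Pooled over the libraries, the ratio of Veh to KLA was 6.88 (95% counting interval 2.86 to 20.1). The peak 4.997 kb from Gnai2, an inhibitory G protein subunit, had no motif match and went from 14 and 11 to 1 and 2 tags (edgeR adjusted p = 0.000814, pooled ratio 10.1, 3.09 to 52.4). That of Gm9949, with a PU.1 match, went from 12 and 10 to 3 and 0 (edgeR adjusted p = 0.00141, pooled ratio 8.91, 2.68 to 46.5). At these low tag numbers the intervals of the ratios are wide. Without KLA replicate 1 the Gnai2 call was lost (log2 fold change -2.49).

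The peak 25.0 kb from Pwwp2b (printed above, with a PU.1 match) was better covered and went from 23 and 24 to 6 and 9 tags (-1.91 ± 0.39, edgeR adjusted p = 0.00185). That 37.0 kb from 1810026B05Rik, with an AP-1 match, went from 21 and 10 to 5 and 1 (edgeR adjusted p = 0.00232, pooled ratio 6.28, 2.58 to 18.4). The Pwwp2b call was lost without KLA replicate 1 (log2 fold change -1.28) and the 1810026B05Rik call without Veh replicate 1 (-2.02). Of the 37 lost counterparts, 22 belonged to peaks of the NCoR f/f KLA set.

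**Figure D5:**
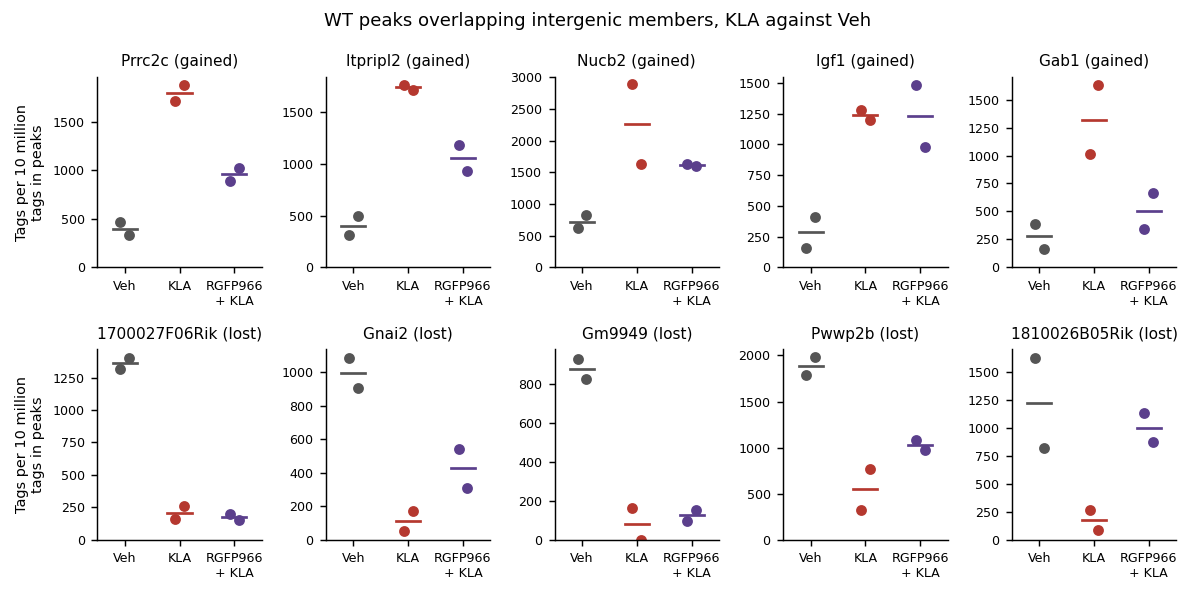
Tags per 10000000 tags in peaks (y axis, from 0) in each WT library for the counterparts of the 5 gained (top) and 5 lost (bottom) intergenic peaks with the smallest adjusted p, under Veh, KLA and RGFP966 with KLA. Points are libraries and lines are means of 2. In all 10 the Veh and KLA points do not overlap, as in each of the 22 gained and 37 lost counterparts, beside 47.9% of all WT peaks.

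Other called sites are given here as examples chosen after their values were seen. They kept their call in 7 to 14 of up to 17 alternative settings, fewest for Mki67 and Dusp6 (7 each) and for Ncf1 and the lost Marcks site (8 each). These numbers include settings that reused the main fit or tested the same peaks, where a call could not be lost. The Insig1 counterpart fell from 23 and 26 to 9 and 9 tags (-1.71 ± 0.37, edgeR adjusted p = 0.00277). Marcks had a gained site at 199.5 kb (10 and 6 to 34 and 18 tags, NF-kB match) and a lost site at 2.33 kb (30 and 29 to 17 and 18). Gains also lay nearest to Itga5, the fibronectin receptor subunit (13 and 13 to 47 and 22 tags), and Mki67 (9 and 10 to 29 and 23). Losses lay nearest to Cxcr4, a chemokine receptor (18 and 14 to 9 and 3), Dusp6, an ERK phosphatase (11 and 13 to 5 and 4), Ncf1, an NADPH oxidase subunit (11 and 9 to 2 and 4), and the lysosomal genes Psap (14 and 15 to 9 and 3) and Ctsh (20 and 16 to 8 and 9).

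Counterparts of the named strongest peaks and of most list genes were not called. Ly6c2 held 86 and 123 tags in Veh and 128 and 116 in KLA, and the nearer Sfi1 peak 55 and 117 against 107 and 104. Junb held 28 and 44 against 34 and 28 tags, Nr4a1 21 and 11 against 23 and 19, Ccl2 17 and 18 against 24 and 15, and Zfp36 17 and 10 against 29 and 16. The Zfp36 value was a log2 fold change of 0.45 ± 0.34 (edgeR adjusted p = 0.51).

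By motif, counterparts of the 331 peaks with an AP-1 match held 11 gains and 6 losses, those of 123 with RUNX 0 and 8, those of 138 with PU.1 1 and 6, those of 171 with C/EBP 4 and 2, those of 52 with NF-kB 2 and 0, those of 33 with IRF 0 and 1, those of 28 with MITF/TFE 0 and 3, those of 13 with CTCF 0 and 0, and those of 125 with a GC box 1 and 3. Over all counterparts gains were 1.92% and losses 3.23%, and the share called was 5.14% with AP-1 and 5.15% over all counterparts. Over the whole WT table gains were 3.3% and losses 1.73%. With AP-1 gains were 3.32% and losses 1.81%, near the shares of the whole table. With RUNX losses were 6.50%. Median log2 fold changes were 0.39 with CTCF, 0.30 with NF-kB, 0.09 with AP-1, -0.05 with C/EBP, -0.06 with IRF, -0.10 with PU.1, -0.15 with the GC box, -0.16 with RUNX and -0.37 with MITF/TFE, beside -0.04 over all counterparts. These are descriptions of small counts in overlapping sets of peaks.

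RGFP966 given with KLA was compared with KLA alone, which shares the KLA libraries with the comparison above. By edgeR's quasi-likelihood test 2 counterparts gained and 0 lost, 0.175% beside 0.34% of the whole table (0.237% for gains and 0.103% for losses). The KLA and RGFP966 with KLA libraries did not overlap in 516 counterparts (45.1%), beside 45.8% of the table. At an unadjusted p under 0.05 edgeR found 166 counterparts and DESeq2, which called none after adjustment, 17. The gains were those of 1810026B05Rik (5 and 1 tags in KLA, 23 and 17 with RGFP966, edgeR adjusted p = 0.0286, pooled ratio 5.10, 95% counting interval 2.15 to 14.7) and Tob1, an antiproliferative gene, 1.22 kb from its start (2 and 1 to 14 and 12, edgeR adjusted p = 0.0465, pooled ratio 6.64, 2.03 to 34.3). Neither gain was called when KLA replicate 1, KLA replicate 2 or either RGFP966 library was left out (log2 fold changes of 1.89 to 3.44 and 2.53 to 2.82). The Tob1 call was also lost with loess offsets (2.33, edgeR adjusted p = 0.073). The Veh libraries held 21 and 10 tags at the former and 7 and 13 at the latter. Of the other sites named above, Prrc2c held 18 and 20 tags with RGFP966, Itpripl2 24 and 18, Nucb2 33 and 31, Igf1 30 and 19, Gab1 7 and 13, Gnai2 11 and 6, Pwwp2b 22 and 19, 1700027F06Rik 4 and 3, and Gm9949 2 and 3, none of them called against KLA.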

How the data were processed

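ATAC-seq libraries of mouse BMDMs (8 libraries, 4 groups of 2) were analysed from tables the authors deposited. Per the study's methods, single-end reads were aligned to mm10 with Bowtie2, peaks were taken by IDR from the 2 most correlated samples per condition and merged, and HOMER annotated them and counted raw tags. Per the file headers, at most 3 tags per base were counted. The deposited counts are raw tag counts per peak. No per-sample columns were left unused (0). The members and lists were chosen with earlier results of these data known.

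Tags were scaled to 10000000 tags in peaks for description. WT tags, in peaks that reached 4 tags in any library, were tested with edgeR 4.0.16 (glmQLFit and glmQLFTest, 6 libraries in 1 model, library size set to tags in peaks, Benjamini-Hochberg adjustment over 9698 peaks, R 4.3.3); DESeq2 1.42.0 was an alternative. The edgeR script was tested on simulated data. Motifs were searched in 200 bp windows of the mm10 reference and copies were sought with BLAST+ 2.17.0. Intervals of shares are 95% Wilson intervals, those of ratios are exact binomial, and all cover counting error only. Named peaks were the 10 highest, the strongest peak of up to 4 genes per list, the 5 farthest from a start, the 5 gained and 5 lost with the smallest adjusted p for KLA (up to 3 each for RGFP966) and the largest chains. Same-numbered WT replicates did not deviate together (r = 0.0182 to 0.0228), so no block was used. Settings tried instead were other normalizations, tag minimums, overlaps, motif windows, chain gaps, a replicate block and leaving out each library. A lower fold threshold, peaks on chromosomes only and a fit of only the libraries compared were also tried. Some genes of the lists are not reported here.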

Additional observations from a re-analysis of the deposited data

How the results depend on the processing

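Depth limited these comparisons: counterparts held medians of 9 to 17 tags per library, and calls rested on 2 libraries a group. With edgeR, KLA gains and losses stayed within 1.5 times of 22 and 37 under other normalizations, except where given here. DESeq2 called 0 gains and 0 losses with its own size factors and with total tags, for KLA and for RGFP966 (0 gains). Asking for 16 tags in 1 library gave 20 KLA losses and, for RGFP966, 1 gain and 2 losses. RGFP966 losses rose from 0 to 2 with TMM, 4 with loess offsets, 2 in a fit of only the 4 libraries compared and 2 with the replicate block, which gave 24 gains and 46 losses for KLA. Same-numbered samples shared only a number. Leaving out 1 library, whose lone partner was assumed to vary like the other groups, gave 4 to 15 gains and 11 to 27 losses for KLA and 0 to 3 gains and 0 to 2 losses for RGFP966. Without WT Veh replicate 1 there were 4 and 14 for KLA, without Veh replicate 2 9 and 17, without KLA replicate 1 6 and 11, and without KLA replicate 2 13 and 20. Leaving out KLA replicate 1, KLA replicate 2 or either RGFP966 library left 0 RGFP966 gains. The cause of these shifts was not tested. Of 201 values for named sites, 158 kept their side of the threshold, 43 lost it and 0 reversed. The 158 include settings that reused the main fit and could not lose a call. These were a fold over 1.5, an overlap of 50% of both peaks and chromosomes only. Dropping the tag filter left the same peaks tested, so it could not lose a call either. All 59 KLA calls had a DESeq2 p of 0.00134 to 0.0429, and the smallest DESeq2 adjusted p was 0.40. Without a tag filter nothing changed.

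Among peaks with 16 tags in both libraries, 48.6%, 41.6% and 60.7% overlapped a WT Veh, KLA or RGFP966 with KLA peak. The replicate correlation was 0.75 in those peaks, 0.68 on chromosomes and 0.64 as Spearman's rho. With gaps of 20 kb, 33.2% of peaks stood in chains. In windows of 100 and 300 bp, matches stood in 16.2% and 27.3% for AP-1, 7.66% and 19.7% for C/EBP, 8.11% and 15.5% for PU.1, 5.48% and 13.7% for RUNX, 2.51% and 6.18% for NF-kB, 1.36% and 4.94% for IRF and 6.80% and 14.04% for the GC box, and at 100 bp in 0.618% for CTCF and 1.03% for MITF/TFE. In peaks with 16 tags in both libraries AP-1 stood in 28.0% and the GC box in 16.1%.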
